A study of Mus musculus with 6 samples.

Results

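Upk1b, Upk3b and Lrp2 are 3 of the 5294 genes that were probed in the series, taken by name, with earlier results of these data known, and all of them were on both probe panels. They were measured by in situ imaging (10x Genomics Xenium), in which gene-specific probes are decoded molecule by molecule and each molecule is assigned to a segmented cell. The 6 conditions were represented by 1 section each, 5 µm thick, fixed and embedded in paraffin, and all from wild-type C57BL/6 mice. These were the fetal liver at embryonic day 14.5 (E14.5), the fetal liver at embryonic day 13.5 (E13.5), the spleen of a control mouse (NC), the spleen of a mouse given phenylhydrazine (PHZ), the bone marrow at postnatal day 8 (P8) and the bone marrow of an aged mouse of 89 weeks. The study's methods name both normal spleens and controls injected with PBS, and the label of the NC section does not say which it was. PHZ lyses red blood cells and was injected into the peritoneum at 40 mg/kg, 2 times per day for 2 days. The marrow of the aged mouse was taken out of the bone before it was embedded. Both spleens came from adult mice, of 2 months by the legends of the study, whose reporting form gives 3 months for normal spleens. No transgene or deletion was involved. With 1 section per condition nothing could be tested between conditions, and every interval below is a 95% exact interval for counting error alone.

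The E14.5 liver, both spleens and the P8 marrow were imaged on a panel of 477 genes with 8 probe sets for each of the 3 genes, and the E13.5 liver and the aged marrow, imaged afterwards, on 1 of 5050 genes with 2 probe sets for each. Values from the 2 panels are therefore given side by side only. Cells with at least 5 detected genes were kept, which left 117323 cells in the E14.5 liver, 5254 in the E13.5 liver, 108327 in the NC spleen, 94492 in the PHZ spleen, 50523 in the P8 marrow and 140707 in the aged marrow. Gene counts per section ran from 1384795 in the E13.5 liver to 20952143 in the E14.5 liver. The strongest negative control probe, which has no target in the tissue, gave between 1 and 105 counts per section. Any pair of sections shared between 0 and 6 cell identifiers.

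The mesothelium is the single sheet of flat cells that covers the liver, the spleen and the other organs of the body cavities. It has features of both epithelium and mesenchyme, so that it holds keratins while it lies on a collagen-rich layer. Uroplakins are membrane proteins first described as the plaques of the bladder's urothelium: Upk1b is a tetraspanin that pairs with a type 3 uroplakin on its way to the membrane, and Upk3b is the type 3 member known from mesothelium. Lrp2, or megalin, is a large endocytic receptor of absorptive epithelia such as the kidney's proximal tubule, where it acts with the receptor cubilin (Cubn). The marrow is not covered by a mesothelium.

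In the mouse assembly GRCm38, Upk1b (ENSMUSG00000049436) lies on chromosome 16 at 38773182 to 38800203, Upk3b (ENSMUSG00000042985) on chromosome 5 at 136038496 to 136044993 and Lrp2 (ENSMUSG00000027070) on chromosome 2 at 69424335 to 69586029. Because these unlinked genes were detected in the same cells, the 250 bases before their annotated starts are shown where the RefSeq promoter table of GRCm38.p6 held them, with matches in capitals to GGAATG (the core letters read by TEAD factors), GCGTGGG (WT1) and GGGCGG (Sp1) on either strand. Upk3b, chr5:136038246-136038495, plus strand, and Lrp2, chr2:69586030-69586279, minus strand, read 5′ to 3′ as follows.
Upk3b: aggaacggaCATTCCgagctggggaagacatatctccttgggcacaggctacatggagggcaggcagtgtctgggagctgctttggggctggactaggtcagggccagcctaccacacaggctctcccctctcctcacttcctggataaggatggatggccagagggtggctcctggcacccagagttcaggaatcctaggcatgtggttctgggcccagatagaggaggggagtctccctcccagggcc
Lrp2: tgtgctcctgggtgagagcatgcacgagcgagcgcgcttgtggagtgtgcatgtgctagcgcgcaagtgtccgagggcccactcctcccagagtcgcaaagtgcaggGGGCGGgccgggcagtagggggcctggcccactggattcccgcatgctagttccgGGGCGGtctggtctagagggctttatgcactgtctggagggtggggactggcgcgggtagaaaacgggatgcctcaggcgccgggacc
The Upk3b window held 1 match to GGAATG, on the opposite strand and starting 241 bases before the start, and the Lrp2 window held 2 matches to GGGCGG, 143 and 88 bases before it. Of 32851 windows of this length in the table, 12.6% held GGAATG, 4.30% held GCGTGGG and 32.7% held GGGCGG. No motif of the 3 was found in both windows, and these letters say nothing of whether a factor binds.

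Among the 4 sections on the smaller panel the 3 genes were detected most in the E14.5 fetal liver, where their cells formed a line around the lobes. Upk1b reached 1949 counts, or 93.0 CPM (counts per 1000000 gene counts of the section, 88.9 to 97.2), in 1143 cells. Upk3b reached 8224 counts, or 392.5 CPM (384.1 to 401.1), in 2500 cells, of which 590 held at least 5 counts and the richest 32. Lrp2 reached 2316 counts, or 110.5 CPM (106.1 to 115.1), in 1353 cells.

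The spleens ranked next on this panel. In the NC spleen Upk1b had 513 counts and 49.6 CPM (45.4 to 54.0), Upk3b 1787 counts and 172.6 CPM (164.7 to 180.8), and Lrp2 279 counts and 27.0 CPM (23.9 to 30.3). In the PHZ spleen Upk1b had 590 counts and 51.6 CPM (47.5 to 56.0), Upk3b 1263 counts and 110.5 CPM (104.5 to 116.8), and Lrp2 338 counts and 29.6 CPM (26.5 to 32.9). The spleens lay side by side for Upk1b and Lrp2, with overlapping intervals, and apart for Upk3b, where the NC section was higher.

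By CPM the P8 marrow was the lowest section of this panel for each gene. It held 77 counts of Upk1b at 11.97 CPM (9.44 to 14.95), 95 of Upk3b at 14.8 CPM (11.9 to 18.0) and 129 of Lrp2 at 20.05 CPM (16.7 to 23.8), against 40 for its strongest control probe. The Lrp2 interval of the P8 marrow ended just below that of the NC spleen. Upk3b was 26.6-fold higher in the E14.5 liver than there (21.7 to 32.9), and this ratio was 11.6 over nuclei and 535.7 per edge cell. On the larger panel the E13.5 liver held 15, 58 and 29 counts of Upk1b, Upk3b and Lrp2, or 10.8, 41.9 and 20.9 CPM, against 1 count for its strongest control probe. The aged marrow held 90, 38 and 21 counts, or 6.90, 2.91 and 1.61 CPM, and its strongest control probe gave 18. The order across the panels depended on the genes summed. Over the genes that both panels hold, Lrp2 had 278.0 CPM (186.2 to 399.2) in the E13.5 and 259.6 CPM (249.2 to 270.4) in the E14.5 liver, and Upk1b 69.2 CPM (55.6 to 85.02) in the aged and 25.1 CPM (19.8 to 31.4) in the P8 marrow.

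**Figure D1:**
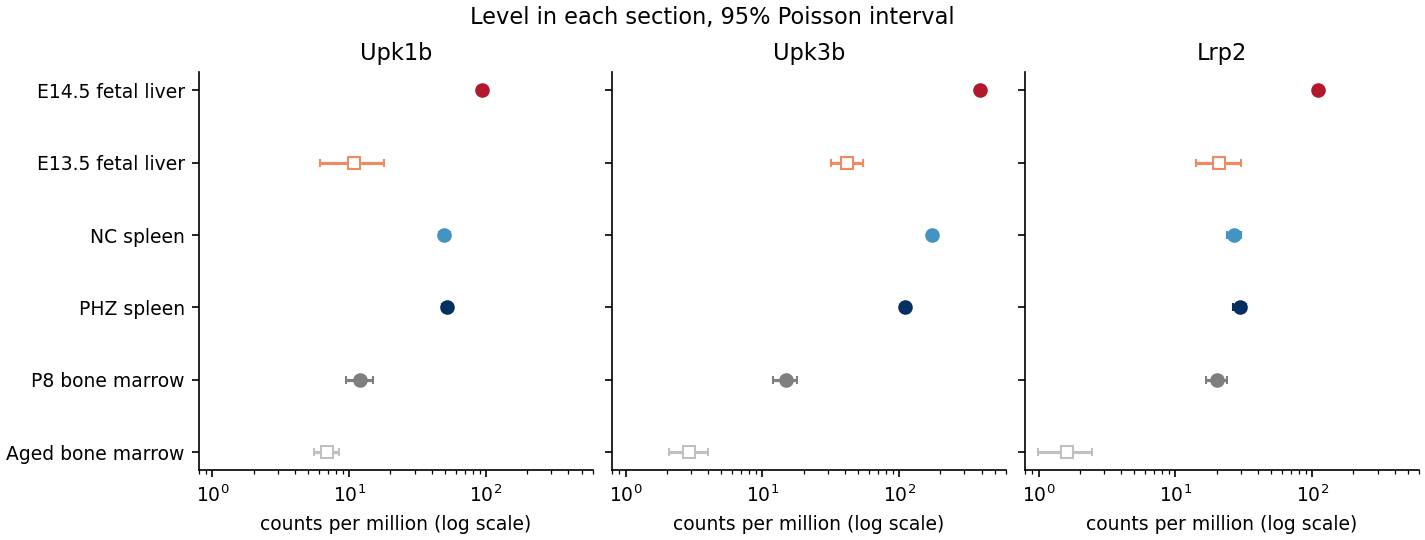
Level of Upk1b, Upk3b and Lrp2 in each section, as counts per 1000000 gene counts (CPM) on a log axis with 95% Poisson intervals. Filled circles are sections on the panel of 477 genes and open squares those on the panel of 5050 genes, which are not on 1 scale with the first. On the smaller panel each gene was highest in the E14.5 fetal liver and lowest in the P8 bone marrow, and on the larger panel the E13.5 fetal liver lay above the aged bone marrow, with overlapping intervals for Upk1b.

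Cells with counts were few everywhere. Upk3b was seen in 2.13% of the E14.5 liver cells, 0.554% of the NC spleen cells, 0.493% of the PHZ spleen cells and 0.186% of the P8 marrow cells. In the E14.5 liver 1429 of its 2500 Upk3b cells held at least 2 counts, in the NC spleen 214 of 600, in the PHZ spleen 228 of 466 and in the P8 marrow 1 of 94. Repeated counts in a cell thus set the liver and spleen sections apart from the marrow. None of the 129 Lrp2 cells of the P8 marrow, and none of the 90 Upk1b or 21 Lrp2 cells of the aged marrow, held more than 1 count. The instrument's decoding differed as well: 69.4% of the Upk3b molecules decoded in the E14.5 liver passed the quality score of 20 that the deposited counts require, 76.7% in the NC spleen and 54.8% in the PHZ spleen, but 19.5% in the P8 marrow.

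The cells with these genes lay on the outer border of the liver. The border was taken as the outline of the area that the cells cover, with holes filled, and a cell was called at the edge when its centre lay within 20 µm of it. In the E14.5 liver, 78.0% of the Upk1b cells (75.5 to 80.4), 74.4% of the Upk3b cells (72.7 to 76.1) and 63.2% of the Lrp2 cells (60.6 to 65.8) were at the edge, against 5.36% of all cells. Among cells with at least 2 counts these shares were 86.5%, 88.2% and 85.4%. Of the cells in the outermost 10 µm, 49.7% held Upk3b, 26.3% Upk1b and 24.5% Lrp2. Farther than 200 µm in, these shares were 0.163%, 0.0725% and 0.240%. Lrp2 therefore fell off least, and 17.5% of its cells lay beyond 100 µm against 7.44% of those with Upk3b. In that interior the CPM of Upk1b, Upk3b and Lrp2 were 7.73, 18.1 and 17.9, beside 11.97, 14.8 and 20.05 in the whole P8 marrow.

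Not all of the liver outline was lined. Of 6283 edge cells, 72.0% had a cell with at least 2 Upk3b counts within 50 µm. On the map the curved outer borders of the lobes carried a line of cells with several of the genes, while straight stretches of the outline carried none. The 6 separate pieces of this section differed among themselves: Upk3b ran from 0.438 to 1.49 counts per edge cell, Upk1b from 0.0496 to 0.297 and Lrp2 from 0.0661 to 0.381. For each gene the lowest value was that of the smallest piece, which had 215 cells.

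**Figure D2:**
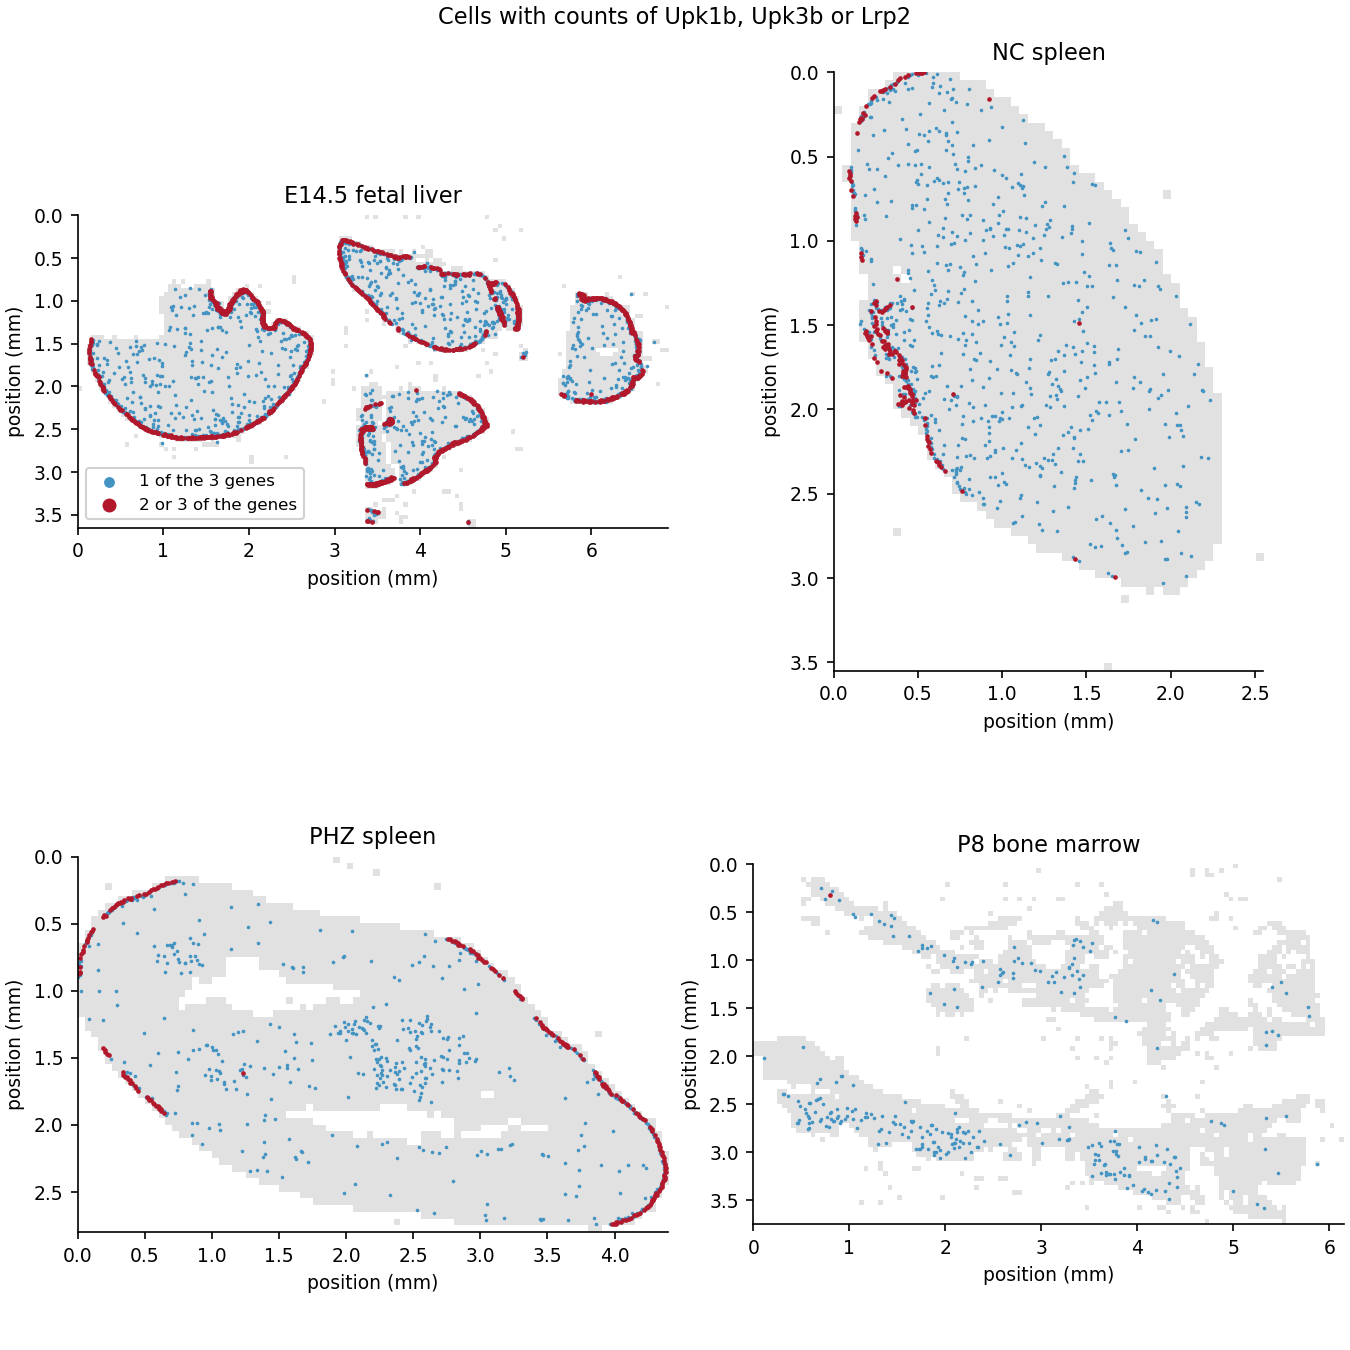
Positions in mm of cells with counts of Upk1b, Upk3b or Lrp2 in the E14.5 fetal liver, both spleens and the P8 bone marrow, over all tissue in grey squares of 50 µm. Blue cells hold 1 of the genes and red cells 2 or 3 of them. Red cells follow the outer borders in the liver and in parts of both spleens. They were 1237, 160 and 221 in number, of which 1091, 84 and 220 were at the edge, and 1 such cell was found in the marrow.

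The small E13.5 section, on the other panel, had the same placement. There 36 of 38 Upk3b cells (94.7%, 82.2 to 99.4) and 21 of 23 Lrp2 cells (91.3%, 72.0 to 98.9) were at the edge, against 32.2% of all cells. No count of the 3 genes lay more than 100 µm in, where the section had 239 cells. That allows up to 82.9 CPM, above the whole-section level of each gene, so absence from the interior could not be told. Upk1b had 9 of its 13 cells at the edge, with an interval of 38.6% to 90.9%.

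In the spleens the edge was lined only in part. The PHZ spleen had 80.0% of its Upk1b cells (75.1 to 84.3) and 72.1% of its Upk3b cells (67.8 to 76.1) at the edge, against 3.16% of all cells, and every cell with at least 2 counts of any of the genes was there: 126 for Upk1b, 228 for Upk3b and 36 for Lrp2. The cells farther in each held 1 count, such as the 111 Upk3b cells beyond 200 µm, which held 111 counts. Lrp2 was mostly of that kind, with 34.4% of its 273 cells at the edge and 60.8% beyond 100 µm. Of the edge cells of this spleen, 43.7% had a cell with at least 2 Upk3b counts within 50 µm.

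The NC spleen showed another arrangement. Of its Upk1b, Upk3b and Lrp2 cells, 29.8%, 31.0% and 12.9% were at the edge, against 2.00% of all cells, and of the cells with at least 2 Upk3b counts 56.1%. The other 94 of these 214 cells lay farther in, and their surroundings of 50 µm held a median of 1470 counts of Car3, Retn, Pck1 and Aqp7, genes of fat cells, whereas the 120 at the edge had a median of 4. Ground rich in these genes, defined after its values were seen as at least 20000 CPM of them within 50 µm, covered 641 cells, or 0.592% of the section, along 1 side of the spleen. It held 49.97% of all Upk3b counts, 38.2% of the Upk1b and 24.7% of the Lrp2 counts, and 25.6% of its cells were positive for Upk3b. The PHZ section had no cell in such ground. This ground was then left out and the outline drawn anew. Of the 102 remaining cells with at least 2 Upk3b counts, 92 (90.2%, 82.7 to 95.2) lay at the edge, against 2.15% of all remaining cells. Of all 436 remaining Upk3b cells, 151 (34.6%) lay there and 49.8% lay beyond 100 µm. The shares of the remaining Upk1b and Lrp2 cells at the edge were 33.9% and 12.6%.

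**Figure D3:**
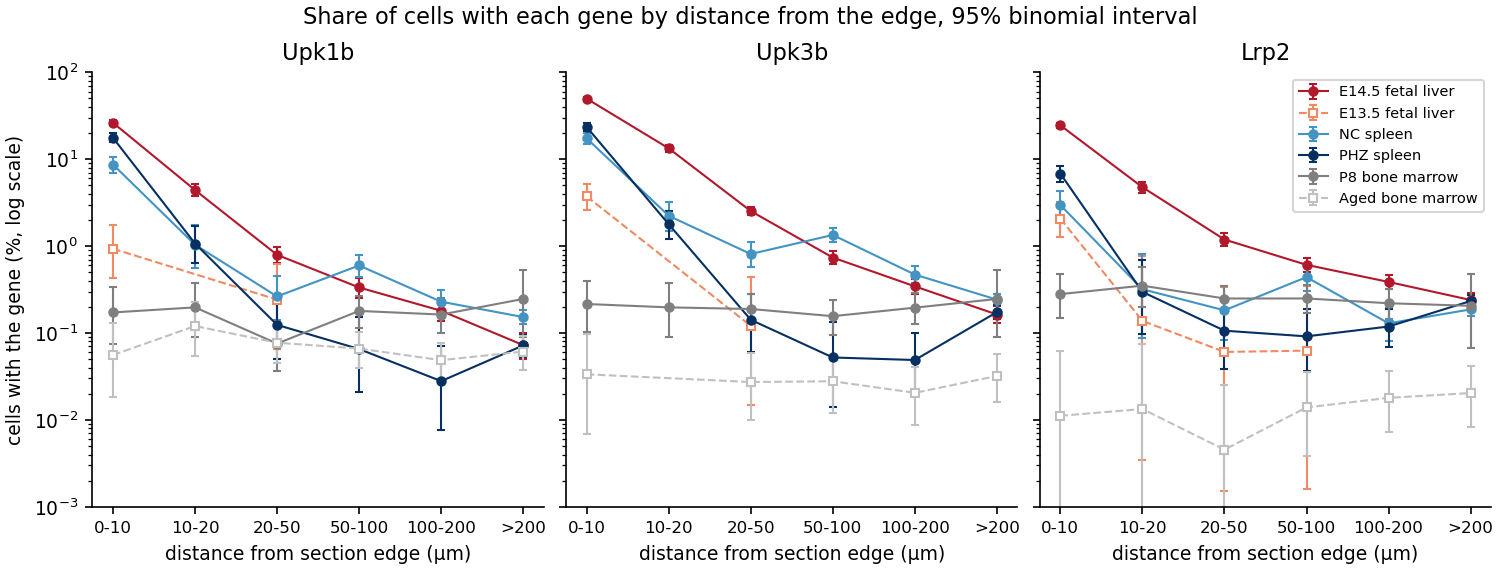
Share of cells with Upk1b, Upk3b or Lrp2, in percent on a log axis, by distance of the cell centre from the section edge in µm, with 95% binomial intervals. Solid lines are the sections on the smaller panel and dashed lines those on the larger, and bands with no positive cell are left out. In both livers and both spleens the share is highest in the outermost 10 µm, in the NC spleen it rises again at 50 to 100 µm (to 1.34% for Upk3b), and in the PHZ spleen it is higher beyond 200 µm than at 50 to 100 µm for Upk3b and Lrp2. The marrow sections have no such peak at the edge.

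In the marrow the share of these cells at the edge could not be told from that of all cells. In the P8 section 22.4% of the Upk1b, 20.2% of the Upk3b and 22.5% of the Lrp2 cells were at the edge, against 18.2% of all cells. Each interval spanned that share, with upper limits of 33.4%, 29.75% and 30.7%. The intervals of the aged marrow spanned its share as well, with 15.6%, 8.33% and 9.52% against 11.7%, on 90, 36 and 21 cells.

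The genes were found together in single cells. In the E14.5 liver 905 of the 1143 Upk1b cells also held Upk3b (79.2%, 76.7 to 81.5), which was seen in 2.13% of all cells. Lrp2 cells held Upk3b in 63.2% and Upk1b in 41.8% of cases. All 3 genes were counted in 544 cells. The overlap was larger at the edge, where 89.9% of the Upk1b cells and 87.4% of the Lrp2 cells also held Upk3b against 29.6% of all edge cells, and smaller beyond 100 µm, where 18 of 91 Upk1b cells did.

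The spleens had similar overlaps at the edge, as follows. In the NC spleen 48.5% of Upk1b cells (42.9 to 54.3) also held Upk3b, and in the PHZ spleen 68.4% (62.9 to 73.5). At the edge alone the shares were 85.9% and 85.1%, and those of Lrp2 cells with Upk3b were 90.3% and 87.2%. Beyond 100 µm they were 20 of 155 Upk1b cells in the NC and 1 of 50 in the PHZ spleen. All 3 genes were counted in 52 cells of the NC and 74 of the PHZ spleen.

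In the E13.5 liver 7 of 13 Upk1b and 13 of 23 Lrp2 cells held Upk3b. The marrow sections had too few positive cells to judge overlap. In the P8 marrow 0 of 76 Upk1b cells held Upk3b, which was seen in 0.186% of all cells there. This allows a share of up to 3.95% when the limit is set at 3 cells of the 76. In the aged marrow it was 0 of 90, against 0.0256% of all cells, which allows up to 3.33% by the same limit. The only cells with 2 of the genes were 1 with Upk1b and Lrp2 in each marrow section. Lrp2 was seen in 0.255% of all P8 and 0.0149% of all aged marrow cells.

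Positive cells also had positive neighbors. Of the cells adjoining an Upk3b cell, within 30 µm and joined in a Delaunay network, 46.2% held Upk3b too in the E14.5 liver, 24.9% in the NC and 30.8% in the PHZ spleen. For Upk1b these shares were 30.5%, 16.0% and 27.6%, and for Lrp2 24.8%, 4.52% and 6.11%. In the P8 marrow 4 of 545 neighbors of Upk3b cells held it (0.734%), against 0.186% of all cells. The shares there were 0.439% against 0.150% for Upk1b and 0.801% against 0.255% for Lrp2, all on few cells. In the aged marrow 0 of 226 neighbors of Upk3b cells held it, against 0.0256% of all cells, too few to judge.

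Cells with at least 2 of the 3 genes had larger outlines. Their median area was 175 µm² in the E14.5 liver, 267 µm² in the NC and 272 µm² in the PHZ spleen, against 62.4, 63.8 and 60.7 µm² for the other cells at the edge. Their nuclei had medians of 28.8, 16.3 and 16.7 µm² against 26.6, 21.6 and 22.6 µm² in all other cells, and were thus larger in the liver and smaller in both spleens. Cells of these sections were nuclei with an expanded outline, so a cell with no neighbor on 1 side takes up more ground, and the part of this in the areas was not tested. Fewer Upk3b molecules lay over a nucleus than of all genes together, at 37.3% against 55.6% in the liver, 33.8% against 58.6% in the NC and 21.4% against 50.1% in the PHZ spleen. Upk1b was lower than all genes in the same 3 sections, at 51.0%, 53.7% and 28.7%. Lrp2 was lower in the liver at 46.9% but higher in the spleens, at 64.9% in the NC and 56.6% in the PHZ section. In the P8 marrow 69.1% of the Upk1b, 67.9% of the Upk3b and 72.9% of the Lrp2 molecules lay over a nucleus, against 43.7% of all.

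These cells were compared with a list of mesothelial markers. The list was chosen with earlier results of these data known, so it gives no independent evidence of identity. Of the other 6 mesothelial markers on the smaller panel, 5 reached 50 counts in the 1237 liver cells with at least 2 of the genes, and 4 of these were at least 2-fold above the other cells, as were 42.3% of all 260 genes with at least 50 counts in them. Krt19, a keratin of simple epithelia, had 8154 CPM in them and 141 elsewhere, a ratio of 58.0 and the largest of these 260 genes. Igfbp6, which binds insulin-like growth factors, had 1710 against 44.0 CPM, and Podxl, a sialomucin of mesothelium, podocytes and vessels, 21876 against 5025 CPM. Anxa8, an annexin, had 188 against 25.4 CPM. Against the other edge cells alone the ratios were lower, at 9.36 for Krt19, 8.13 for Igfbp6, 3.69 for Podxl and 2.52 for Anxa8. Krt8 was the exception at 5168 against 5717 CPM, a keratin that 47.1% of the other liver cells also held.

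On the larger panel more of the classical markers were present. In the 53 cells of the E13.5 liver with any of the 3 genes, Wt1, the transcription factor of the coelomic lining, had 20 counts and 701 CPM against 40.6 CPM elsewhere. Aldh1a2, which makes retinoic acid, had 771 against 29.5 CPM, Gpm6a 666 against 16.2 CPM and Bnc1, a transcription factor, 385 against 4.42 CPM. Msln, or mesothelin, had 3 counts in these 53 cells and 1 in all the others. Of the 10 mesothelial markers on this panel 9 were over 5-fold higher in these cells, a fold chosen after their values were seen, and Muc1 was at 0 in them. Of all 4804 genes with a count in the section, 7.29% were over 5-fold higher. In the 146 such cells of the aged marrow none of the 10 was over 5-fold higher, beside 5.01% of all 5047 genes with a count, so that a count of 0 is near that share. Aldh1a2 had 13 counts and 555 CPM there against 296 CPM elsewhere, and Efemp1 2 counts and 85.4 against 37.9 CPM. Gpm6a had 1 count, and Wt1, Msln, Bnc1, Gata6, Rspo1, Podxl and Muc1 had none. At the levels of the other marrow cells each of these 7 would have had under 1 count, so that their absence could not be told at this depth.

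Markers of urothelium and kidney, tissues known for uroplakins and megalin, had few counts in the same cells, at most 26 for any gene in the 1237 liver cells. The uroplakins Upk1a and Upk3a together had 128 CPM in the liver cells with at least 2 of the genes and 60.3 elsewhere, 139 against 104 in the NC and 62.7 against 75.3 in the PHZ spleen. In the liver cells Upk3a alone was 4.55-fold higher than elsewhere, on 8 counts. Cubn, the partner of megalin, had 682 counts in the E14.5 liver, of which 8.06% were at the edge, where 71.2% of the Lrp2 counts were. The 9 kidney tubule markers summed to 460 CPM in the liver cells and 458 elsewhere. Of these, 8 were higher in the liver cells, by 1.74-fold to 3.57-fold, and the most abundant, the transporter Slc22a8, was lower at 79.1 against 300.5 CPM. In the spleens the 9 markers together had 2 counts in the NC and 4 in the PHZ cells, where the levels of the other cells would have given 11.4 and 9.73, too few to judge single genes.

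Beyond these markers, genes of fibroblasts and smooth muscle were higher in the liver cells with at least 2 of the genes. Of 260 genes ranked, 110 were at least 2-fold higher than elsewhere and 61 at least 2-fold lower. After Krt19 the largest ratios were those of Nbl1 (50.8), an inhibitor of bone morphogenetic proteins, Igfbp6 (38.9), the chemokine receptor Ackr3 (35.7), the myelin and epithelial protein gene Pmp22 (35.5), the chemokine Cxcl13 (35.5), Nnat (34.6), the growth factor Pdgfa (33.1), the caveolin Cav1 (32.2) and the potassium channel Kcna1 (31.8). All 5 fibroblast markers with at least 50 counts were higher, among them the collagens Col1a1 with 78317 against 3419 CPM and Col1a2 with 57503 against 3985 CPM. Of the 5 smooth muscle markers with at least 50 counts 4 were over 2-fold higher, and the list summed to 13047 against 2896 CPM. Part of the collagen level was shared by the other edge cells, which had 19692 CPM of Col1a1. Markers of hepatocytes were lower as a group, at 7416 against 34948 CPM, as were those of red cells at 75164 against 209589 CPM. RNA of neighboring cells in the outlines was not removed, and its part was not tested.

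The same comparison in the NC spleen had 160 cells and 118 genes ranked. It was led by Krt19 (443-fold), Igfbp6 (185-fold), Krt8 (97.1-fold) and Anxa8 (79.4-fold), all on the list of mesothelial markers. The ion transport regulator Fxyd3 (75.3-fold), the fat cell genes Car3 (47.6-fold), Retn (43.0-fold) and Pck1 (38.0-fold), and Retnla (44.2-fold) followed, with Nbl1 at 27.9-fold. The 4 fat markers summed to 99505 CPM in these cells and 2213 elsewhere. In the 84 of these cells that lay at the edge Car3 was at 51459 CPM, by the outline that includes the ground rich in fat genes.

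In the PHZ spleen 221 cells had at least 2 of the genes, and 220 of them were at the edge. Krt19 (409-fold), Krt8 (284-fold), Anxa8 (218-fold) and Igfbp6 (145-fold) led again out of 151 genes. Further high ratios were those of the epithelial secreted protein Sbsn (36.0-fold), the small heat shock protein Cryab (34.4-fold), Car3 (32.0-fold), Nbl1 (28.7-fold) and Fxyd6 (28.2-fold). Smooth muscle markers, genes that the splenic capsule also uses, had 89413 CPM in these cells, 66675 in the other edge cells and 14793 in all other cells. In the NC spleen the cells with the genes had less of them than the other edge cells, at 27358 against 74214 CPM. Podxl was lower in the PHZ cells with the genes than in all other PHZ cells, at 690 against 5405 CPM. In the NC spleen it was higher in them, at 5088 against 751 CPM.

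**Figure D4:**
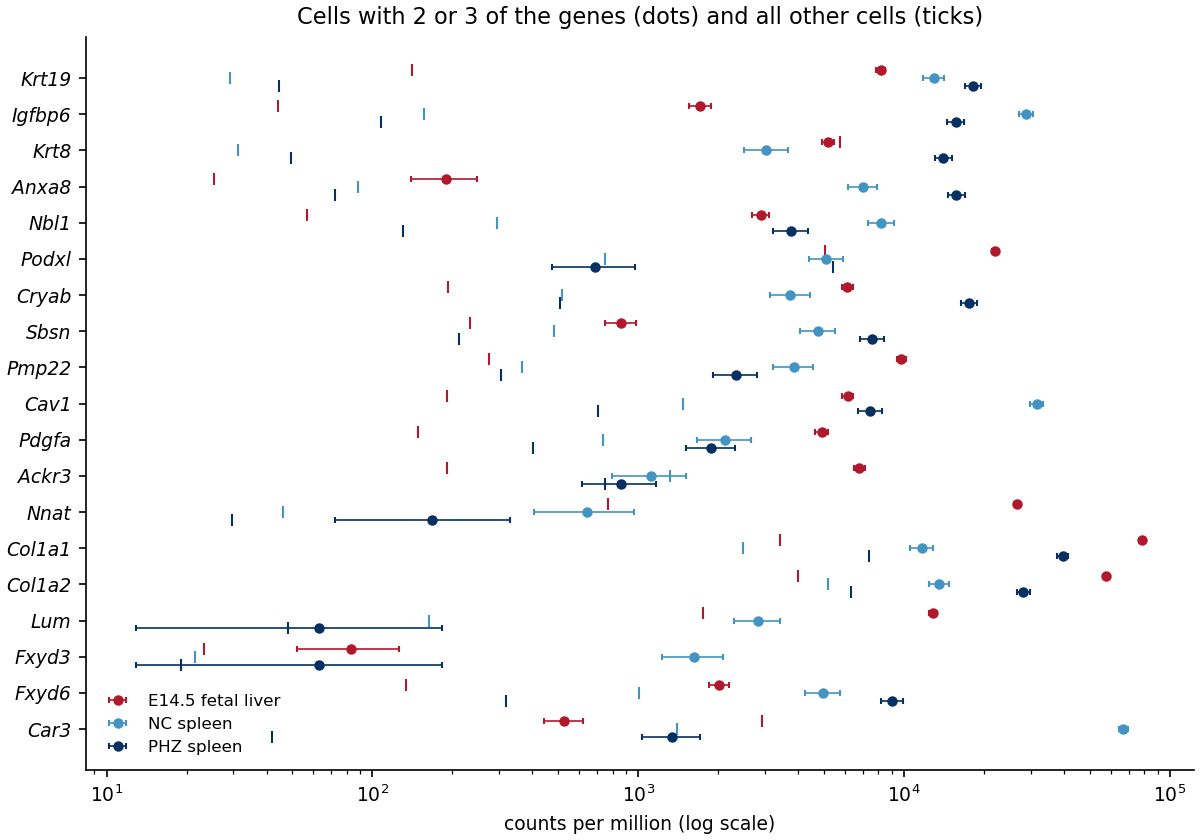
Level of named genes in cells with at least 2 of Upk1b, Upk3b and Lrp2 (dots with 95% Poisson intervals) and in all other kept cells (ticks), in CPM on a log axis, for the E14.5 fetal liver and both spleens. Krt19, Igfbp6, Anxa8 and Nbl1 are higher in the cells with the genes in all 3 sections, while Krt8 is so in the spleens only and Podxl in the liver and the NC spleen only.

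Detection over all cells of a section was compared as well. The measure was phi, the correlation of the presence of 2 genes over the kept cells of 1 section, which depends on how often each is seen. In the E14.5 liver the nearest genes to Upk3b were Upk1b (0.53), Krt19 (0.52), Lrp2 (0.46), Nnat (0.41) and Ackr3 (0.39), and the 5 nearest to Upk1b and to Lrp2 were likewise the other members with Krt19, Nnat and Ackr3. In the NC spleen Krt19 was the nearest to both uroplakins (0.35 for Upk1b and 0.39 for Upk3b), with Igfbp6 among the next. In the PHZ spleen the uroplakins were nearest to each other (0.56), followed by Krt19, Krt8, Anxa8 and Igfbp6. Lrp2 had lower values in the spleens, at most 0.19 in the NC and 0.26 in the PHZ section, both with Upk1b.

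The comparison of the spleens set the lining genes of an organ under the acute loss of red cells that PHZ brings beside those of a control. Over the whole section Upk1b was 1.04-fold (0.924 to 1.17) and Lrp2 1.10-fold (0.934 to 1.29) of the NC level in the PHZ spleen, and Upk3b was 0.640-fold (0.595 to 0.688). Of 472 genes with at least 100 counts over both spleens, 41.5% were lower in the PHZ spleen past 1.5-fold and 16.5% higher, and past 2-fold these were 27.5% and 12.9%. Upk3b was thus 1 of the 196 genes lower past 1.5-fold, none of the 3 genes passed 2-fold, and the median ratio of all genes was 0.731. In sums over a section, fewer cells of a type and less RNA per cell cannot be told apart.

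The ratios depended on the ground over which they were taken. Counted per cell at the edge, Upk3b was 1.14-fold higher in the PHZ spleen (1.04 to 1.26), Upk1b 2.14-fold (1.80 to 2.55) and Lrp2 2.68-fold (1.90 to 3.85). Counts per edge cell depend on how densely cells are packed. The NC section had 108327 kept cells on 4.38 mm² and the PHZ section 94492 on 7.25 mm², and the part of this was not tested. Without the ground rich in fat genes of the NC section, Upk3b was 1.26-fold (1.16 to 1.37), Upk1b 1.66-fold (1.45 to 1.91) and Lrp2 1.44-fold (1.21 to 1.71). At the NC edge drawn anew without that ground, Upk3b, Upk1b and Lrp2 had 0.240, 0.0635 and 0.01555 counts per edge cell. The PHZ edge had 0.379, 0.177 and 0.0532. Counted over those edge cells that had a cell with at least 2 Upk3b counts within 50 µm, 690 in the NC and 1306 in the PHZ spleen, Upk1b was 1.58-fold (1.33 to 1.89) and Lrp2 1.92-fold (1.36 to 2.75). Upk3b was 0.841-fold (0.765 to 0.925) there, but these cells were chosen by its own counts, so that this value does not bear on its direction. Over the other measures the direction for Upk3b changed, while Upk1b had a ratio of over 1 in each of these and of 0.698 (0.577 to 0.844) over nuclei.

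**Figure D5:**
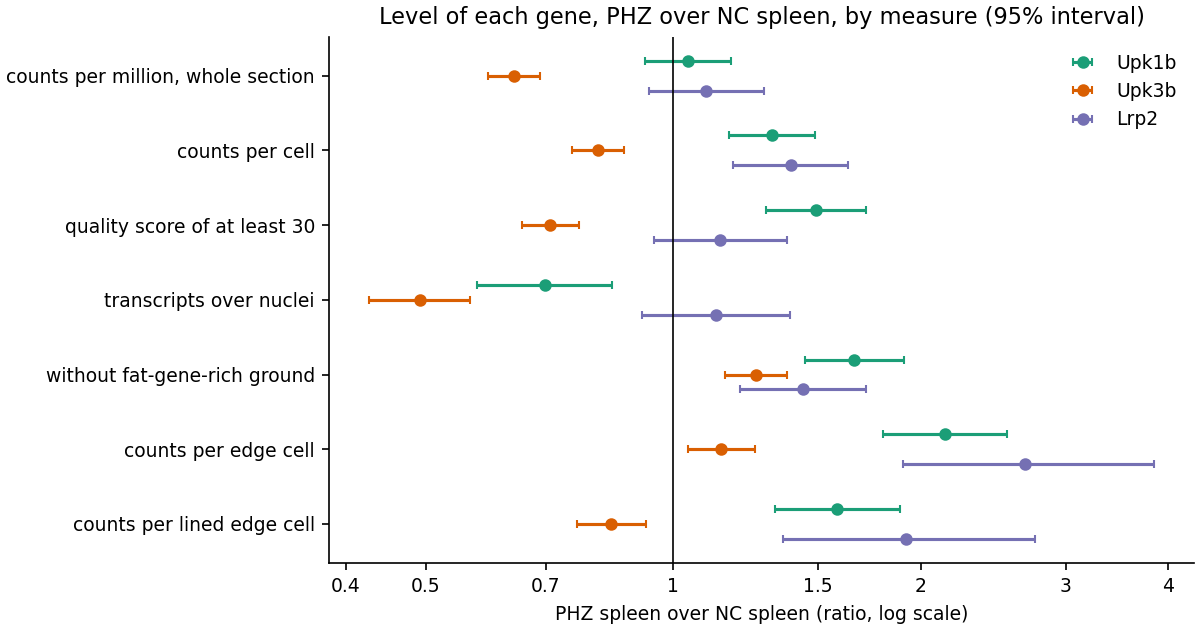
Ratio of each gene's level in the PHZ spleen over the NC spleen on a log axis, with 95% intervals for counting error, under 7 measures. The line marks equal levels. Upk3b (orange) lies below the line over whole sections and above it per edge cell and without the ground rich in fat genes. Its value over lined edge, also below the line, is taken on cells chosen by Upk3b itself. In each measure it lies below Upk1b and Lrp2.

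Set against Upk3b, Upk1b was in higher proportion in the PHZ spleen than in the liver or the NC spleen, and Lrp2 at the edge was in lower proportion in both spleens than in the liver. For every 100 Upk3b counts at the edge there were 22.6 Upk1b counts (21.4 to 23.9) in the E14.5 liver, 24.9 (21.1 to 29.4) in the NC spleen and 46.6 (41.9 to 51.7) in the PHZ spleen. For Lrp2 there were 23.7 (22.5 to 25.03), 5.99 (4.30 to 8.15) and 14.03 (11.8 to 16.6). At a quality score of at least 30 the proportions over whole sections were 16.1, 23.1 and 48.5 for Upk1b and 27.4, 14.7 and 23.7 for Lrp2. Within the liver, pieces 1 to 5 by size had 19.9 to 25.5 Upk1b and 17.2 to 37.4 Lrp2 counts per 100 at the edge. The smallest piece, with 121 edge cells, had 11.3 and 15.1. The Upk1b proportion of the PHZ spleen lay above the range over these pieces and that of the NC spleen within it. The Lrp2 proportions of both spleens at the edge lay below the range over these pieces, but the PHZ interval spanned the 15.1 of the smallest piece. Pieces of 1 section do not give the spread between animals. Over whole sections at a quality score of at least 30, the Lrp2 proportion of the PHZ spleen (20.6 to 27.1) overlapped that of the liver (26.05 to 28.8). Both the area and the score differ there from the edge values. In the PHZ spleen 47.0% of the Lrp2 and 89.7% of the Upk3b counts lay at the edge.

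Within the cells with at least 2 of the genes, levels of other genes were compared between the spleens as well. Of 192 genes with at least 50 counts over both sets of cells, 46.4% were higher in the PHZ spleen past 1.5-fold and 27.1% lower. Of the 6 mesothelial markers, Krt8 and Anxa8 were higher past that fold and Igfbp6 and Podxl lower, Krt19 was within it, and Muc1 had only 3 and 8 counts. Krt8 stood at 3030 CPM in the NC and 14052 CPM in the PHZ spleen, a ratio of 4.64 (3.78 to 5.73). Anxa8 had 7006 and 15725 CPM (2.24-fold, 1.94 to 2.60), Krt19 12928 and 18150 CPM (1.40-fold, 1.25 to 1.57) and Cryab 3726 and 17502 CPM (4.70-fold, 3.91 to 5.68). Lower in the PHZ spleen were Igfbp6 with 28831 and 15599 CPM (0.541-fold, 0.492 to 0.595), Nbl1 with 8202 and 3743 CPM (0.456-fold, 0.377 to 0.551), Cav1 with 31528 and 7444 CPM (0.236-fold, 0.209 to 0.266) and Podxl with 5088 and 690 CPM (0.136-fold, 0.0906 to 0.197). Among the cells of this kind at the edge alone, 84 and 220 in number, the same ratios were 4.68 for Krt8, 1.52 for Anxa8, 1.33 for Krt19, 4.85 for Cryab, 0.514 for Igfbp6, 0.456 for Nbl1, 0.275 for Cav1 and 0.199 for Podxl. The edge here was that of the outline with the ground rich in fat genes included. Car3 in these edge cells had 51459 CPM in the NC and 1341 CPM in the PHZ spleen. Over all cells with at least 2 of the genes, markers of other cell types moved as well. Those of fat had 99505 CPM in the NC and 1422 CPM in the PHZ cells, those of smooth muscle 27358 and 89413 CPM, those of fibroblasts 54715 and 85210 CPM and those of red cells 2447 and 25615 CPM, and their part was not tested.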

How the data were processed

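Upk1b, Upk3b and Lrp2 and all lists of genes were chosen with earlier results of these data known. The authors deposited raw counts, 1 for each gene in each segmented cell and without normalization, as the instrument's software (Xenium Onboard Analysis 1.7.1.0 for the smaller panel and 3.1.0.4 for the larger) gave them, with cell positions and cell and nucleus areas (a deposited signal in µm²). For the smaller panel a deposited table of single molecules with a quality score, where 20 is the minimum for a count, and a mark for those over a nucleus was used as well. Segmentation expanded the nuclei on the smaller panel and used boundary stains on the larger. The paper's filter of at least 5 genes per cell was kept. The CPM of a gene, computed from the deposited counts, is the gene's sum over kept cells divided by all gene counts of the section, times 1000000. Depth was a median of 60 to 190 counts per cell, and a cell with 1 count of a gene is weak evidence of it.

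The tissue area was drawn with discs of 15 µm around all cell centres on a grid of 5 µm, holes were filled and pieces of under 100 cells left out. Intervals are Poisson for counts, Clopper-Pearson for shares and conditional on the sum for ratios, at 95%. The intervals cover counting error only. Named genes were the 3 members, Upk1a, Upk3a and Cubn, the marker lists, the 10 largest ratios in cells with at least 2 members (at least 50 counts) and the 5 highest phi values, of which 1 gene is not reported here, and other genes of the figure were chosen after their values were seen. Edge distances and ratios were tested on simulated data. Python 3.11.15, SciPy 1.17.1 and pandas 2.3.3 were used. Alternatives were set for the denominator, cell filter, quality score, nuclei, thinned depth, outline and edge. Other tables of outlines were not used.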

Additional observations from a re-analysis of the deposited data

How the results depend on the processing

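Of 350 values under an alternative, over 72 results, 201 stayed within the 95% interval of the reported value. The direction of the PHZ over NC ratio turned for Upk3b, to 1.14 per cell at the edge and to 1.26 without the ground rich in fat genes, an alternative chosen after seeing the data, as was the count over lined edge. That ratio was 0.810 per kept cell, 0.709 at a quality score of at least 30, 0.492 over nuclei and 0.841 over lined edge, which Upk3b itself defines. For Upk1b it moved to 1.32 per kept cell, 1.49 at a quality score of at least 30, 0.698 over nuclei, 2.14 per edge cell, 1.66 without the ground rich in fat genes and 1.58 over lined edge. For Lrp2 it moved to 1.39 per kept cell, 2.68 per edge cell, 1.44 without that ground and 1.92 over lined edge. The Upk3b ratio of the E14.5 liver over the P8 marrow was 37.3 per kept cell, 11.6 over nuclei and 535.7 per edge cell.

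The share of Upk3b cells in the E14.5 liver, the NC and the PHZ spleen was 1.22%, 0.198% and 0.241% at 2 counts. Thinned to 50 counts per cell, which left out 1.90%, 15.6% and 15.6% of cells, it was 1.15%, 0.343% and 0.299%. The share of them at the edge rose at 2 counts to 88.2%, 56.1% and 100.0%, and to 90.2% in the NC spleen when its ground rich in fat genes was left out as well. Counted over single molecules it was 84.7%, 40.8% and 89.8%. In the liver it was 76.4% with discs of 10 µm and 71.6% with discs of 30 µm, and in the NC spleen 40.3% with holes not filled. The share of Upk1b cells with Upk3b was 89.2%, 94.0% and 87.3% at 2 counts of each gene, 86.4%, 85.7% and 82.8% within 50 µm of the edge, and 68.9%, 38.5% and 41.5% over nuclei. The causes of these shifts were not tested.

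No paired analysis was possible because each condition had 1 section. In both marrow sections nearly every positive cell held 1 count, at median depths of 109 counts per cell in the P8 and 60 in the aged section, beside 84 and 104 in the NC and PHZ spleens. Panels, slides and runs cannot be told apart from age and organ for the E13.5 liver and the aged marrow.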
